A study of Mus musculus with 8 samples.

Results

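Of 46 listed genes of the Wnt signalling pathway, 42 were among the 16940 genes of a table of newly made RNA from mouse embryonic stem cells. They were chosen by symbol, with earlier results of these data known, and sorted by role. Shares of members set beside shares of all genes below are therefore descriptions. Wnt4, Wnt6, Fzd1 and Lgr5 were not in the table. RNA made during 15 min of labelling with 400 µM 4-thiouridine was sequenced by TT-seq (transient transcriptome sequencing), which reads ongoing transcription more closely than total RNA does. The cells were E14 embryonic stem cells. Their CTCF, which binds DNA and holds chromatin loops in place, is fused to a degron that lets the auxin IAA remove it. The control overexpression line was taken before IAA (the untreated control) and after 12 h of IAA (the IAA control). A line overexpressing wild-type CTCF (the wild-type line) and a line overexpressing a mutated CTCF (the mutant line) were measured after 12 h of IAA, and the labels used here do not name the mutation. Each of the 4 groups had 2 libraries. The wild-type and mutant lines were not measured here without IAA, so the effect of a line and the effect of its CTCF form cannot be told apart, and the labels do not say whether a line is a single clone or which promoter drives the transgene. All groups grew in serum-free medium with LIF, 1 µM of the MEK inhibitor PD0325901 and 3 µM of CHIR99021.

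Wnt ligands are made fatty by the enzyme Porcn and carried to the cell surface by Wls, and they bind Frizzled receptors together with Lrp5 or Lrp6. Without a ligand, a complex of Axin, Apc and the kinase GSK3 marks beta-catenin for destruction. With a ligand the complex is held back, and beta-catenin joins factors of the TCF and LEF family to switch on targets, several of which inhibit the pathway in turn. In mouse embryonic stem cells the pathway is known for favouring self-renewal. CHIR99021 inhibits GSK3, a step downstream of ligand and receptor, and all 4 groups received it.

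Reads recovered from the table, which cover the listed genes only, came to 15671114 to 21561141 per library. Across genes, log2 values of libraries correlated with Pearson's r of 0.995 to 0.996 within groups and 0.983 to 0.990 between groups. All 9 embryonic stem cell markers examined were present. Their normalized read counts summed to 51782 to 52697 in the untreated control and 54099 to 55525 in the IAA control. These sums were 59180 to 63238 in the wild-type line and 58673 to 61486 in the mutant line. Of the markers of other cell types, 2 of 5 endoderm, 2 of 5 mesoderm, 1 of 4 neuroectoderm, 1 of 4 fibroblast and 1 of 4 2-cell-like markers were listed. The summed mesoderm markers were 89.2 to 93.1 in the wild-type line and 42.8 to 69.0 elsewhere, with T and Eomes listed and Mixl1, Mesp1 and Hand1 not. The fibroblast marker Pdgfrb was 155 in both IAA control libraries and 88.0 to 139 elsewhere. The endoderm markers Gata6 and Gata4 summed to 201 to 229.9 in the IAA control and 155 to 194 elsewhere, and the 2-cell-like marker Zscan4d was 11.8 to 15.7 in the wild-type line and 3.30 to 6.90 elsewhere. The neuroectoderm marker Pax6 was 5.02 to 9.48 in the untreated control, 10.999 to 13.1 in the IAA control, 11.8 to 19.2 in the wild-type line and 3.13 to 5.93 in the mutant line, and the libraries of the lines did not overlap. Their part in the results below was not tested. In such bulk samples, fewer cells of a type and less RNA per cell cannot be told apart.

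The promoters of 4 members on which the results turn are shown here, as the 250 bases before the start site in RefSeq on GRCm38.p6. Capitals mark the letters searched for, on both strands: CCNNNAGNNGGC, a core of the CTCF motif, and TCAAAG, a core bound by TCF and LEF factors. Wls is shown because it differed strongly between the wild-type and mutant lines, Lef1 because it is the TCF and LEF family member with the largest such difference, Dkk1 as a target far lower without IAA, and Sp5 as a target that rose with IAA and differed between the lines. Each name is followed by its window.
Wls, chr3:159839400-159839649, + strand: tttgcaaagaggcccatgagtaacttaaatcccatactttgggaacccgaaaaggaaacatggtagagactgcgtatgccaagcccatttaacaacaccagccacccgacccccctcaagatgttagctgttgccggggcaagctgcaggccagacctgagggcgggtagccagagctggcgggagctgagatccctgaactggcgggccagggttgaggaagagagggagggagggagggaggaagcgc
Lef1, chr3:131110047-131110296, + strand: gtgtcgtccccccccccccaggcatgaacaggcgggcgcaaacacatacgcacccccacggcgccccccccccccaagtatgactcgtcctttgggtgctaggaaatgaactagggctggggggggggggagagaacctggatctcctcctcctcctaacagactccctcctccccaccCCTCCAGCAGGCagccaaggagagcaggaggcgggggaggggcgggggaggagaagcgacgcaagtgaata
Dkk1, chr19:30549497-30549746, - strand: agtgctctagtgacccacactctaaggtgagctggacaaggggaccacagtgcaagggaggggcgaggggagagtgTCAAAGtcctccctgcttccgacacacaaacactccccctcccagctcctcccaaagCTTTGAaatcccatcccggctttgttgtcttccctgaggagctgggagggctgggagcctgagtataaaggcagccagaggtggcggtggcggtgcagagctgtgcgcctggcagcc
Sp5, chr2:70474673-70474922, + strand: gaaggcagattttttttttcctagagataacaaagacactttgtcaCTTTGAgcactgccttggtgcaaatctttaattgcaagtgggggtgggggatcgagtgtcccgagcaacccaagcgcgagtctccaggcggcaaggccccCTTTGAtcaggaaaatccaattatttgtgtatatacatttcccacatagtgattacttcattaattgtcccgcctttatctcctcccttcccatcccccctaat
The Wls window held neither motif. The Lef1 window held the CTCF core 71 bases before the start. Of 3 further Lef1 start sites, a nearby one shares that core, at 97 bases before it, and a downstream one has 2 TCF cores instead. The Dkk1 window held the TCF core 174 bases before the start and, on the other strand, 117 bases before it. In the Sp5 window the TCF core stood at 204 and at 104 bases before the start, both on the other strand. Of 38 promoters found for 28 of the 42 members, 6 (15.8%, of 5 genes, the Lef1 core counted at both starts) held the CTCF core, against 7.17% of all 32851 promoters of the table. The TCF core was in 7 of the 38 (18.4%), against 13.8% of all. It lay in a promoter of each of Dkk1, Sp5, Lef1, Gsk3a, Gsk3b, Wnt11 and Wnt5b. Among the targets and feedback inhibitors, the promoters found for Axin2, Nkd1 and Nkd2 held no TCF core. Axin2, a feedback inhibitor that targets beta-catenin for destruction, held the CTCF core 135 bases before its start. The cores do not overlap in these windows, and a match is a description of the letters, not of binding.

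Each member was tested with limma on log2(normalized read count + 1), fitted to the 15818 genes whose mean over the libraries reached 10. Differences below are on that log2 scale, with the standard error (SE), and a gene was called where its adjusted p was under 0.05 over all genes. Of the 42 members, 39 passed the filter on the mean, and Wnt3, Wnt3a and Nkd2 did not. Of the 39, 35 (89.7%) were called in at least 1 of 6 comparisons, where 73.3% of all genes were. Wls, Tcf7l1 and Sfrp1 were called in all 6, where 1.62% of all genes were. Without limma's mean-variance trend each of these lost its call in the wild-type line against the IAA control. Fzd2, Fzd6, Fzd9 and Wnt11 were called in none. The wild-type and mutant lines were each compared with both controls, so those comparisons share libraries. Genes are not compared with each other by level, since the counted length of each gene is not given in the sources used here.

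**Figure D1:**
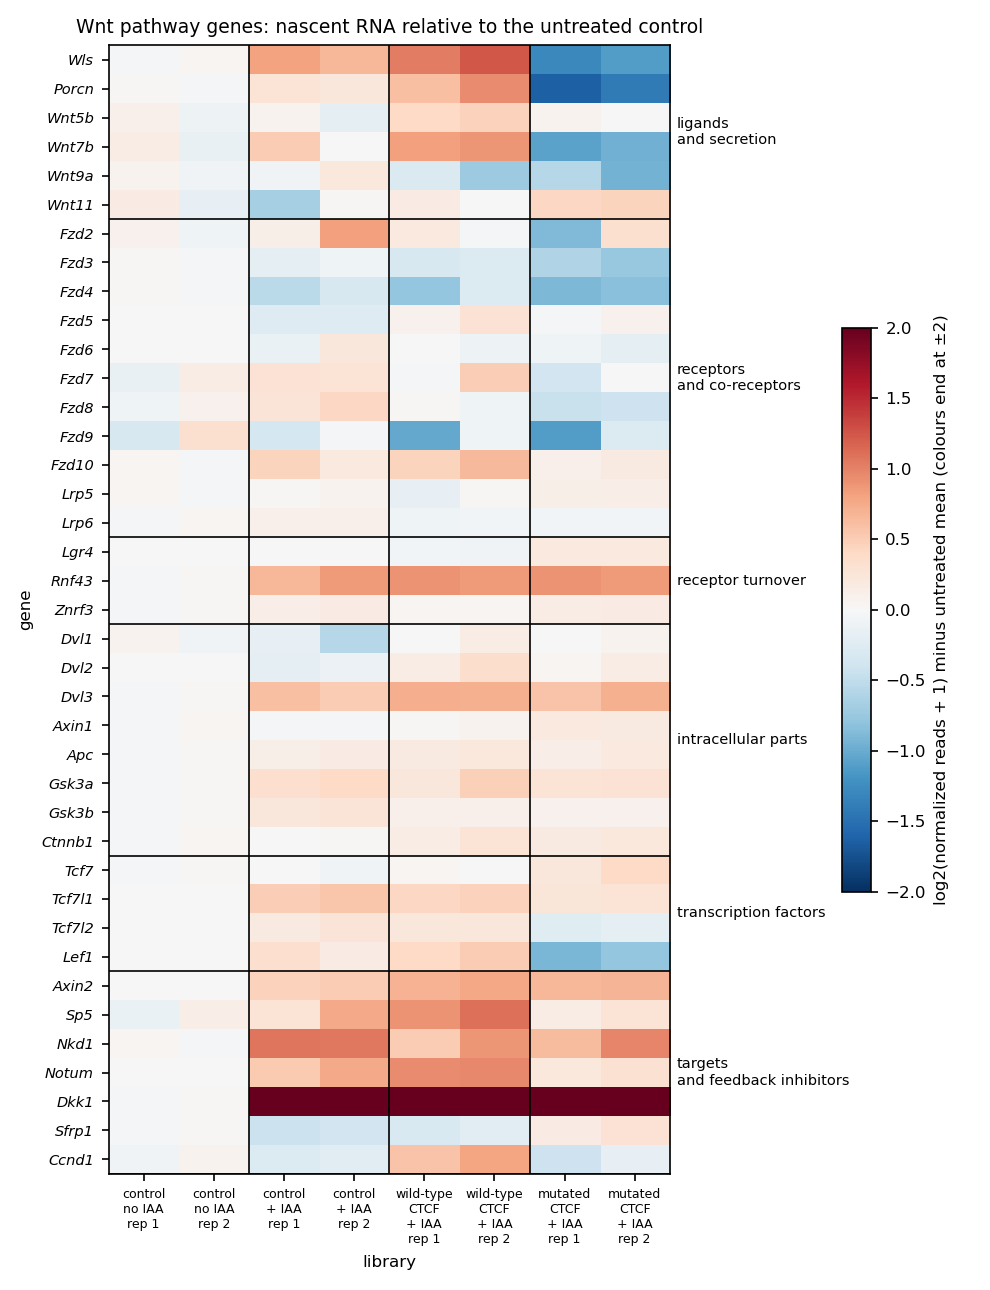
Normalized read counts of the 39 tested Wnt pathway genes in the 8 libraries, as log2(value + 1) minus the mean of the untreated control, with genes in rows by role and libraries in columns by group. The colour scale ends at -2 and 2, so that Dkk1, which was 3.87 higher in the IAA control, lies past its end. Wls, Porcn, Wnt7b and Lef1 are below the untreated control in both mutant libraries and above it in both wild-type libraries.

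With IAA in the control line, 21 of the 39 members changed (53.8%), against 37.7% of all genes tested. The rise was the more frequent direction: 18 members rose, where 19.4% of all genes did, and 3 fell, where 18.4% of all genes did. The median difference of the 39 was 0.15, against -0.0017 over all genes. Rescaling all libraries to equal totals gave 16 higher and 6 lower members. Fewer members were called in both directions without the mean-variance trend (last section), and the count over all genes fell to 3946. All 7 tested targets and feedback inhibitors were called, 1 of them (Dkk1) tested only because of its level with IAA, with Dkk1, Nkd1, Notum, Sp5 and Axin2 higher and Sfrp1 and Ccnd1 lower. Of the other roles, 3 of 4 transcription factors, 4 of 8 intracellular parts and 2 of 3 genes of receptor turnover rose. Among ligands and secretion 1 of 6 rose, and of 11 receptors 3 rose and 1 fell.

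Relative to the IAA control, 15 members changed in the wild-type line (38.5%, against 31.6% of all genes). Of these, 10 rose, where 21.5% of all genes did, and 5 fell, where 10% did, and the median of the 39 was 0.047 against 0.057 over all genes. That split depended on the scaling: median-of-ratios factors gave 7 higher and 9 lower members, and equal totals 9 and 8. In the mutant line 23 members changed (59.0%, against 34.3% of all genes). There 9 rose and 14 fell, against 22% and 12.4% of all genes, and the median was -0.16 against 0.055. In both lines fewer members were called without the mean-variance trend (last section). Over all genes, that fit called 2379 in the wild-type line and 3228 in the mutant line.

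Between the lines, 20 members differed (51.3%, against 34.7% of all genes). In the mutant line 6 were higher and 14 lower than in the wild-type line, where 16.3% of all genes were higher and 18.4% lower. The median was -0.15 against -0.0087. Without the mean-variance trend fewer members were called in both directions (last section), and the count over all genes fell to 3263. The 14 lower members were Wls, Porcn and Wnt7b of ligands and secretion, Fzd3, Fzd5, Fzd7, Fzd8 and Fzd10 of the receptors, the transcription factors Lef1, Tcf7l1 and Tcf7l2, and the targets Ccnd1, Sp5 and Notum. The 6 higher ones were Lrp5, Lgr4, Znrf3, Axin1, Tcf7 and Sfrp1. Of the 18 members that rose with IAA and the 14 that were lower in the mutant line, 8 were in both lists (44.4% of the first and 57.1% of the second): Wls, Fzd8, Fzd10, Lef1, Tcf7l1, Tcf7l2, Sp5 and Notum. Over all genes tested, 970 were in both lists (31.7% and 33.3%). Of the 8, Fzd10, Lef1 and Sp5 lost the call with IAA when the mean-variance trend was left out. Fzd10 and Tcf7l1 then lost the call between the lines. The overlap is a description and was not tested.

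Against the untreated control, 25 members differed in the wild-type line (64.1%, against 43.2% of all genes), 22 of them higher and 3 lower, where 27.6% and 15.6% of all genes were. Median-of-ratios factors gave 20 higher and 6 lower, and equal totals 17 and 6. In the mutant line 25 members also differed from the untreated control (64.1%, against 37.8% of all genes). Of those, 16 were higher and 9 lower, where 24% and 13.7% of all genes were. This split also moved with the scaling: median-of-ratios factors gave 14 higher and 11 lower, and equal totals 13 and 11.

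**Figure D2:**
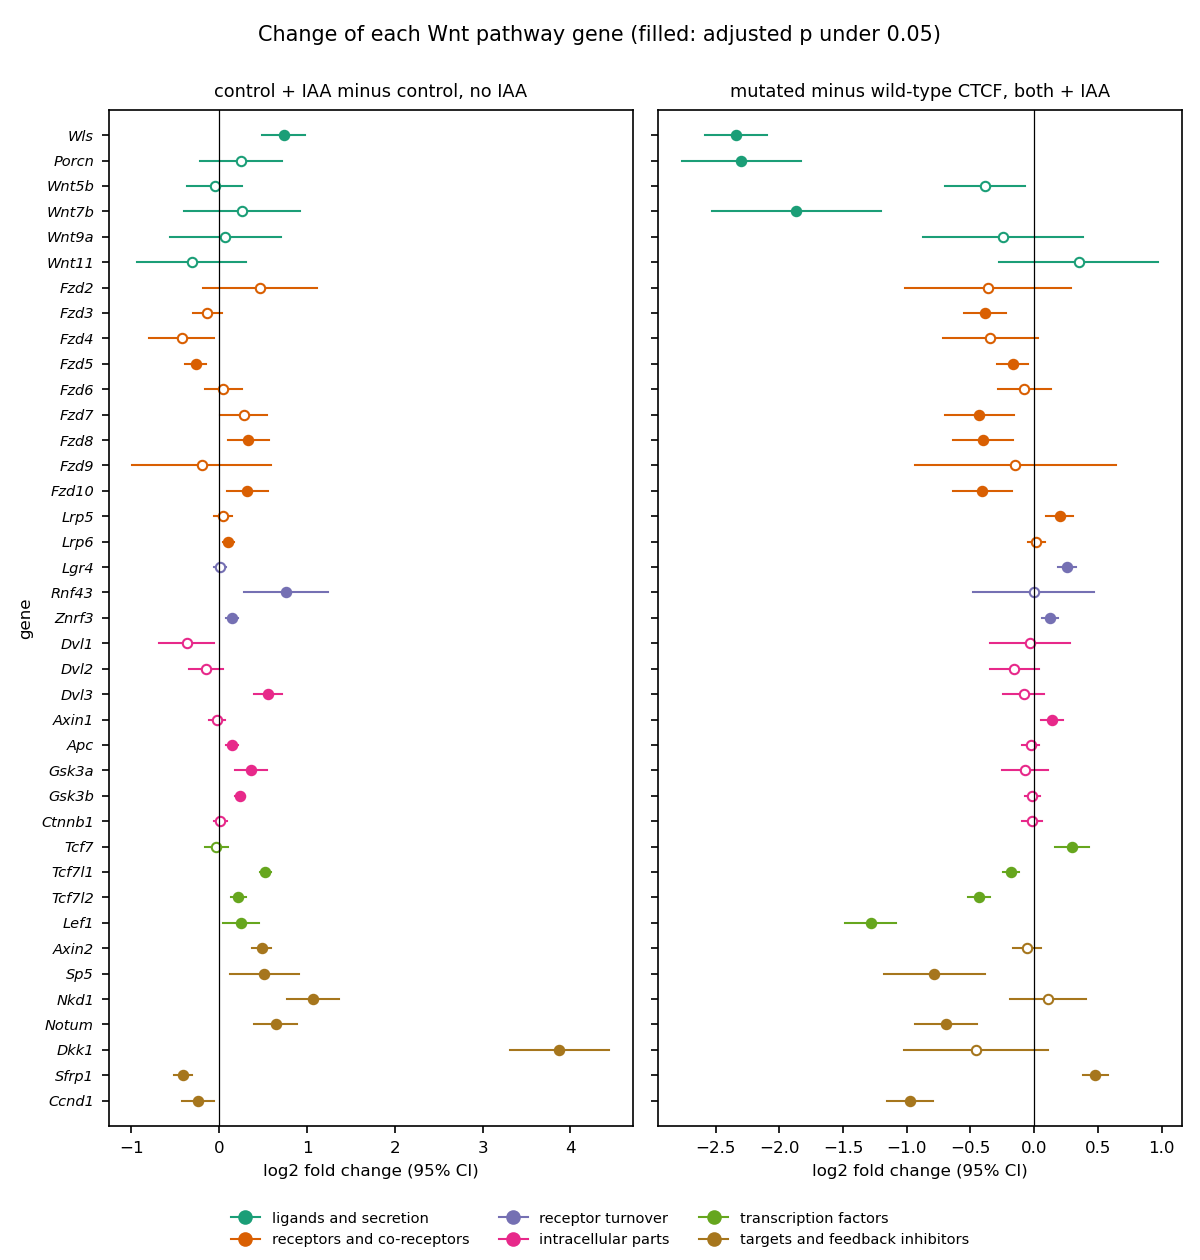
Log2 differences of the 39 tested members with 95% confidence intervals, for the control line with and without IAA and for the mutant against the wild-type line, with filled points where the adjusted p was under 0.05. Dkk1 has the highest difference with IAA (3.87), and Wls (-2.34) and Porcn (-2.30) have the lowest between the lines.

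The secretion genes differed most between the lines. Wls carries Wnt ligands from the Golgi to the plasma membrane, and its gene lies at chr3:159839672-159938664 on GRCm38 (GENCODE M21). Its normalized read count was 145 and 153 in the untreated control, 262 and 238 in the IAA control, 306 and 356 in the wild-type line and 60.6 and 68.2 in the mutant line. No groups overlapped, and the mutant libraries were the lowest of all 8. Wls rose by 0.74 with IAA (SE 0.12, adjusted p = 4.2e-06). It was a further 0.40 higher in the wild-type line than in the IAA control (adjusted p = 0.0094), and 1.94 lower in the mutant line (-1.94, adjusted p = 2.9e-16). The lines differed by -2.34 (SE 0.12, adjusted p = 9.1e-19), and the mutant line was below the untreated control as well (-1.20, adjusted p = 1.2e-10). The rise in the wild-type line was no longer called without replicate 2 of the IAA control (adjusted p = 0.11) or of the wild-type line (adjusted p = 0.18), nor without the mean-variance trend (adjusted p = 0.057). One tested gene, Depdc1a, starts within 500 kb of the start of Wls, and it did not pass the threshold between the lines (0.07, adjusted p = 0.29). Depdc1a was below the untreated control in the mutant line (-0.23, adjusted p = 0.00052) and in the wild-type line (-0.31, adjusted p = 9.6e-06).

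Porcn, the acyltransferase that lipidates Wnt ligands, was likewise lowest in the mutant line. It was 41.8 and 40.5 in the untreated control, 50.03 and 48.4 in the IAA control, 62.9 and 80.2 in the wild-type line, and 12.5 and 14.8 in the mutant line. Mutant replicate 1 rests on 12 reads. The rise with IAA was not called (0.25, SE 0.23, adjusted p = 0.42), nor was the wild-type line against the IAA control (0.52, adjusted p = 0.081). The lines differed by -2.30 (SE 0.23, adjusted p = 1.7e-10). The mutant line was below the untreated control by -1.53 (adjusted p = 1e-06). Porcn, Wnt7b, Rnf43 and Dkk1 were singled out after their values were seen.

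Of the ligands past the filter on the mean, Wnt7b was the one called between the lines. It was 18.4 and 14.7 in the untreated control, 23.8 and 16.5 in the IAA control, 29.7 and 31.02 in the wild-type line and 7.31 and 7.91 in the mutant line, where replicate 1 rests on 7 reads. The lines did not overlap, and they differed by -1.87 (SE 0.33, adjusted p = 1.7e-05). Wnt5b, a ligand best known for beta-catenin-independent signalling, was higher in the wild-type line than in the IAA control (0.48, SE 0.16, adjusted p = 0.016). The call of Wnt5b was lost without replicate 2 of the IAA control (adjusted p = 0.16) or of the wild-type line (adjusted p = 0.086). Wnt9a was lower in the mutant line than in the IAA control (-0.83, SE 0.31, adjusted p = 0.036), and Wnt11 passed the threshold nowhere. The call of Wnt9a was lost without IAA control replicate 1 (adjusted p = 0.06), replicate 2 (adjusted p = 0.19) or mutant replicate 2 (adjusted p = 0.22). Wnt3a, a canonical ligand used to sustain stem cells, was under the mean filter, at 17.6 and 16.4 in the untreated control, 5.96 and 12.1 in the IAA control, 13.1 and 7.49 in the wild-type line and 5.22 and 0.989 in the mutant line. In the fit without that filter Wnt3a was lower in the mutant line than in the untreated control (-2.35, SE 0.50, adjusted p = 0.00023), in the IAA control (-1.44, adjusted p = 0.024) and in the wild-type line (-1.64, adjusted p = 0.0099). Wnt3 stayed between 4.28 and 10.4 in all libraries, and that fit called it in no comparison.

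**Figure D3:**
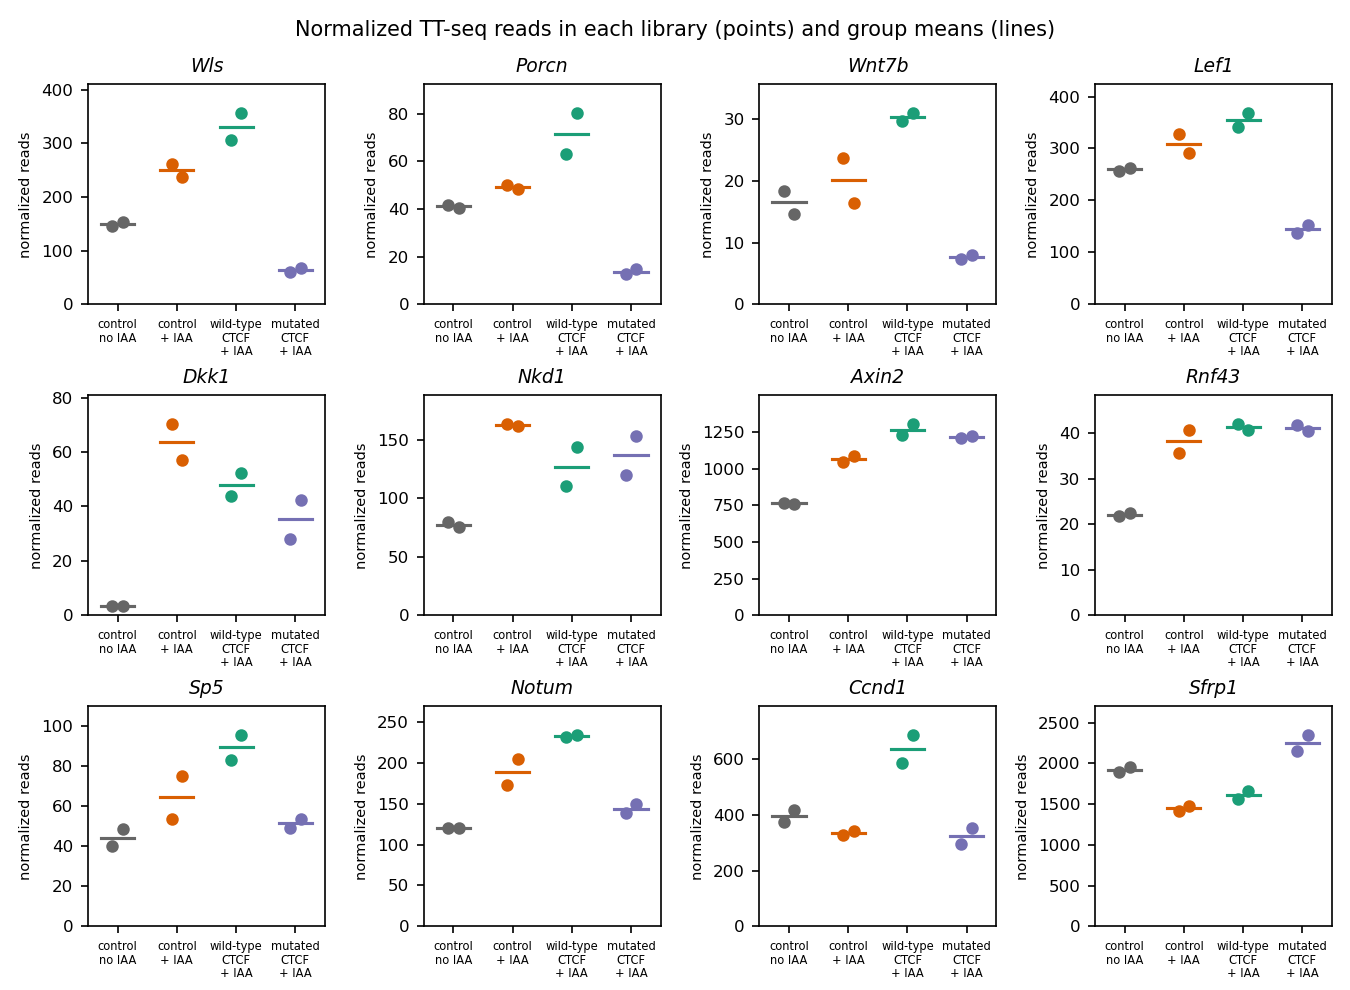
Normalized read counts per library of 12 Wnt pathway genes by group, with points for libraries and lines for means, each axis starting at 0. The mutant libraries of Wls, Porcn, Wnt7b and Lef1 lie below all others, and those of Axin2 and Rnf43 lie among the other IAA libraries.

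Receptor genes moved less than the secretion genes, with differences between the lines from -0.43 to 0.20. Fzd8 was 176 and 199 in the untreated control, 223 and 249.7 in the IAA control, 191 and 175 in the wild-type line and 137 and 139 in the mutant line. It rose with IAA (0.33, SE 0.12, adjusted p = 0.02) and was lower than the IAA control in the wild-type line (-0.37, adjusted p = 0.013) and in the mutant line (-0.77, adjusted p = 1.3e-06). The lines differed by -0.40 (SE 0.12, adjusted p = 0.0057). The rise of Fzd8 with IAA was not called without untreated control replicate 1 (adjusted p = 0.23) or IAA control replicate 2 (adjusted p = 0.18). Its fall in the wild-type line was not called without IAA control replicate 2 (adjusted p = 0.15) or wild-type replicate 2 (adjusted p = 0.11), nor its difference between the lines without wild-type replicate 1 (adjusted p = 0.053).

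Fzd10 was 169.7 and 161 in the untreated control, 226 and 189 in the IAA control, 226 and 259 in the wild-type line and 177 and 188 in the mutant line. It rose with IAA (0.32, SE 0.11, adjusted p = 0.024) and was lower in the mutant than in the wild-type line (-0.41, SE 0.11, adjusted p = 0.0049). The rise was not called without untreated control replicate 1 (adjusted p = 0.072), replicate 2 (adjusted p = 0.16) or IAA control replicate 1 (adjusted p = 0.31), and the difference between the lines not without wild-type replicate 2 (adjusted p = 0.088). Fzd3, a Frizzled known for planar polarity and axon guidance, was highest without IAA, at 491 and 474. It was 425 and 453 in the IAA control, 387 and 401 in the wild-type line and 319 and 286 in the mutant line, and no groups overlapped. Its fall with IAA was not called (-0.14, SE 0.08, adjusted p = 0.19), and the lines differed by -0.38 (adjusted p = 0.00028).

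Fzd4, the receptor of retinal vessel growth, was 96.96 and 94.8 in the untreated control, 65.5 and 76.99 in the IAA control, 55.95 and 79.2 in the wild-type line and 51.2 and 53.4 in the mutant line. All 6 libraries with IAA were below the untreated control. The mutant line differed from the untreated control (-0.86, SE 0.18, adjusted p = 0.0002), and the fall with IAA alone missed the threshold (-0.43, SE 0.18, adjusted p = 0.062). Fzd5 fell with IAA (-0.26, SE 0.06, adjusted p = 0.00043) and was higher than the IAA control in both the wild-type line (0.46) and the mutant line (0.29). Its difference between the lines (-0.17, adjusted p = 0.025) was not called without wild-type replicate 2 (-0.07, adjusted p = 0.5) or mutant replicate 1 (-0.11, adjusted p = 0.27). Fzd7 was lower in the mutant line than in the wild-type line (-0.43, SE 0.13, adjusted p = 0.01), although the lines' libraries overlapped. The difference was smaller and no longer called without wild-type replicate 2 (-0.17) or mutant replicate 1 (-0.23). The co-receptor Lrp6 rose with IAA by 0.11 (SE 0.03, adjusted p = 0.0077), and Lrp5 was higher in the mutant than in the wild-type line by 0.20 (SE 0.05, adjusted p = 0.0025). The call of Lrp6 was lost without untreated control replicate 1 (adjusted p = 0.096) or either IAA control replicate (adjusted p = 0.053 and 0.051), and that of Lrp5 without wild-type replicate 1 (adjusted p = 0.2).

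Rnf43 and Znrf3 are ubiquitin ligases that remove Frizzled receptors from the surface, and Lgr4 binds R-spondins that hold these ligases back. Rnf43 was 21.7 and 22.4 in the untreated control, 35.7 and 40.7 in the IAA control, 41.96 and 40.7 in the wild-type line, and 41.8 and 40.5 in the mutant line. All 6 libraries with IAA were above both without it, by 0.76 in the control line (SE 0.24, adjusted p = 0.0091). That call was lost without untreated control replicate 1 (adjusted p = 0.052) or IAA control replicate 2 (adjusted p = 0.072). Between the lines Rnf43 was not called (adjusted p = 0.99), with a 95% interval of the difference from -0.48 to 0.47. Znrf3 rose with IAA by 0.15 (SE 0.03, adjusted p = 0.00026) and was 0.12 higher in the mutant than in the wild-type line (adjusted p = 0.002). Lgr4 did not change with IAA beyond the spread (0.01, SE 0.03, adjusted p = 0.85) and was 0.26 higher in the mutant than in the wild-type line (adjusted p = 1.7e-07).

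Of the 8 intracellular parts, 1 was called between the lines, where 34.7% of all genes were, and with 8 genes nothing is read from that share. It was Axin1, the scaffold of the destruction complex (0.14, SE 0.04, adjusted p = 0.0089). That call was lost without replicate 1 of the wild-type line (adjusted p = 0.076) or of the mutant line (adjusted p = 0.073). Ctnnb1, which encodes beta-catenin, was 4597 and 4894 in the untreated control, 4759.9 and 4831 in the IAA control, 5266 and 5757 in the wild-type line and 5391 and 5495 in the mutant line. It did not pass the threshold with IAA (0.02, SE 0.04, adjusted p = 0.79). Both lines were above the IAA control, by 0.20 (adjusted p = 0.00011) and 0.18 (adjusted p = 0.00026), and they differed from each other by -0.02 (adjusted p = 0.78). Neither rise was called when limma was run without its mean-variance trend (adjusted p = 0.087 and 0.095). Dvl3, one of 3 Dishevelled genes that pass the signal from Frizzled, was 308 and 315 in the untreated control and 472 and 444 in the IAA control. It was 513 and 511 in the wild-type line and 461 and 508 in the mutant line. Dvl3 rose with IAA (0.56, SE 0.08, adjusted p = 2.4e-07), whereas Dvl1 (-0.37, adjusted p = 0.056) and Dvl2 (-0.15, adjusted p = 0.21) were not called.

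The kinase genes Gsk3a and Gsk3b rose with IAA by 0.37 (SE 0.09, adjusted p = 0.0012) and 0.24 (SE 0.03, adjusted p = 4.5e-09), and Apc by 0.15 (SE 0.03, adjusted p = 0.00058). None of the 3 was called between the lines. Genes listed on the opposite strand overlap 9 members: Wnt5b, Fzd5, Dvl2, Dvl3, Apc, Gsk3a, Ctnnb1, Notum and Ccnd1. Libraries were strand-specific, but whether counting used the strand is not given in the sources used here, so reads of these pairs may not be separate. Between the lines no tested partner was called. With IAA, Fbxl14, which overlaps Wnt5b, was higher (0.25, adjusted p = 0.043), as was Acadvl, which overlaps Dvl2 (0.93, adjusted p = 0.0078). Fbxl14 was also higher in the wild-type line than in the untreated control (0.41, adjusted p = 0.00095), and so was Acadvl in the wild-type line (1.10, adjusted p = 0.0015) and the mutant line (0.78, adjusted p = 0.025). LTO1, which overlaps Ccnd1, was higher in the mutant line than in the IAA control (0.31, adjusted p = 0.014). Their part in the values of these members was not tested.

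Lef1 and 3 TCF genes encode the factors that beta-catenin binds. Lef1 was 257 and 262 in the untreated control, 329 and 290.4 in the IAA control, 341 and 368 in the wild-type line and 138 and 152 in the mutant line. The mutant libraries were the lowest of all 8. The lines differed by -1.28 (SE 0.10, adjusted p = 2.1e-13), and the mutant line was below the IAA control by -1.09 (adjusted p = 1.9e-11) and below the untreated control by -0.84 (adjusted p = 7.7e-09). The rise of Lef1 with IAA was small (0.25, SE 0.10, adjusted p = 0.046). It was not called without untreated control replicate 1 (adjusted p = 0.19), replicate 2 (adjusted p = 0.14) or IAA control replicate 1 (adjusted p = 0.35), nor with equal totals (adjusted p = 0.092). The gene lies at chr3:131110471-131224356. None of the 8 tested genes that start within 500 kb of its start was called between the lines. In the mutant line against the IAA control, Gm42997 among them was higher (0.97, adjusted p = 0.034) and Papss1 lower (-0.21, adjusted p = 0.0094).

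Tcf7l1, a repressor of pluripotency genes that beta-catenin counters, was 8883 and 9010.0 in the untreated control, 12579.8 and 13161 in the IAA control, 11963 and 12316 in the wild-type line and 10612 and 10836 in the mutant line. The groups did not overlap. It rose with IAA by 0.52 (SE 0.03, adjusted p = 1.5e-17) and was lower in the mutant than in the wild-type line by -0.18 (SE 0.03, adjusted p = 1.2e-05), the latter not called without the mean-variance trend (adjusted p = 0.052). The difference between wild-type line and IAA control was -0.08 (adjusted p = 0.033), and it was not called without IAA control replicate 2 (adjusted p = 0.36) or wild-type replicate 1 (adjusted p = 0.23), nor by edgeR on the recovered reads (adjusted p = 0.054). Tcf7l2 rose with IAA (0.22, SE 0.04, adjusted p = 9.1e-05) and was lower in the mutant than in the wild-type line (-0.43, SE 0.04, adjusted p = 2.1e-10). Tcf7 ran the other way between the lines (0.30, SE 0.07, adjusted p = 0.00039), and with IAA it was not called (-0.03, adjusted p = 0.74).

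Dkk1 passed the filter on the mean only through the libraries with IAA, so a difference with IAA was a condition of its being tested. Nkd2, highest without IAA, did not pass. Dkk1 is a secreted inhibitor that blocks Lrp5 and Lrp6, and its gene lies at chr19:30545863-30549665. It was 3.34 and 3.45 in the untreated control, each from 4 reads, and 70.3 and 57.2 in the IAA control. It was 43.7 and 52.4 in the wild-type line and 28.2 and 42.5 in the mutant line. All 6 libraries with IAA were above both without it, and the mean of the IAA control was 18.8 times that of the untreated control (a log2 difference of 3.87, SE 0.28). Both lines remained above the untreated control, by 3.47 and 3.02. Dkk1 was lower than the IAA control in the mutant line (-0.85, adjusted p = 0.015), which was not called without IAA control replicate 1 (adjusted p = 0.15) or mutant replicate 1 (adjusted p = 0.22). The lines did not differ beyond the threshold (-0.46, SE 0.28, adjusted p = 0.21).

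Axin2, a widely used readout of beta-catenin activity, was higher in all 6 libraries with IAA. It was 767 and 757 in the untreated control, 1046 and 1087 in the IAA control, 1230.1 and 1303 in the wild-type line and 1209.9 and 1225 in the mutant line. The rise with IAA was 0.48 (SE 0.06, adjusted p = 2.5e-09). Both lines were above the IAA control, by 0.25 in the wild-type line (adjusted p = 0.00062) and 0.19 in the mutant line (adjusted p = 0.0061), the latter not called without IAA control replicate 1 (adjusted p = 0.078). Between the lines Axin2 differed by -0.06, with a 95% interval from -0.17 to 0.06 (adjusted p = 0.46). Nkd1, an inhibitor that acts on Dishevelled, was 79.4 and 75.00 in the untreated control, 163 and 162 in the IAA control, 110.2 and 143 in the wild-type line and 120.2 and 153 in the mutant line. It rose with IAA by 1.06 (SE 0.15, adjusted p = 1.4e-07), and the lines did not differ beyond the threshold (0.11, SE 0.15, adjusted p = 0.60). Of 7 tested genes that start within 500 kb of the start of Nkd1, none rose with IAA and 3 fell.

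Sp5 and Notum rose with IAA and were lower in the mutant than in the wild-type line. Sp5, a repressor that limits Wnt target expression, was 40.1 and 48.3 in the untreated control, 53.6 and 74.8 in the IAA control, 83.1 and 95.2 in the wild-type line and 49.1 and 53.4 in the mutant line. The wild-type libraries were the highest of all 8. The lines differed by -0.78 (SE 0.20, adjusted p = 0.0016), and the rise with IAA was 0.52 (SE 0.20, adjusted p = 0.035). That rise was not called without untreated control replicate 1 (0.38), replicate 2 (0.65) or IAA control replicate 2 (0.28). Against the IAA control, Sp5 was not called in the wild-type line (0.48, adjusted p = 0.055) or the mutant line (-0.30, adjusted p = 0.25). Against the untreated control, Sp5 was higher in the wild-type line (1.00, adjusted p = 6.4e-05) and not called in the mutant line (0.21, adjusted p = 0.42).

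Notum, a secreted enzyme that strips the lipid from Wnt ligands, was 120.4 and 119.8 in the untreated control, 173 and 205 in the IAA control, 232 and 234 in the wild-type line and 139 and 149 in the mutant line. No groups overlapped. The rise with IAA was 0.64 (SE 0.12, adjusted p = 3.5e-05), and the lines differed by -0.69 (SE 0.12, adjusted p = 1.5e-05). The mutant line was not called against the untreated control (0.26, adjusted p = 0.084). Against the IAA control, Notum was higher in the wild-type line (0.31, adjusted p = 0.046) and lower in the mutant line (-0.38, adjusted p = 0.011). The first was not called without IAA control replicate 1 (adjusted p = 0.37), wild-type replicate 1 (adjusted p = 0.10) or replicate 2 (adjusted p = 0.15), nor with median-of-ratios factors (adjusted p = 0.086), equal totals (adjusted p = 0.061) or no mean-variance trend (adjusted p = 0.072). The second was not called without IAA control replicate 2 (adjusted p = 0.18) or mutant replicate 1 (adjusted p = 0.085).

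Sfrp1 and Ccnd1 went the other way with IAA. Sfrp1, a secreted protein that binds Wnt ligands, was 1892 and 1957 in the untreated control, 1421 and 1473 in the IAA control, 1563 and 1661 in the wild-type line and 2154 and 2348 in the mutant line. It fell with IAA (-0.41, SE 0.05, adjusted p = 7.7e-09) and was higher in the mutant than in the wild-type line (0.48, SE 0.05, adjusted p = 3.2e-10). Its rise in the wild-type line over the IAA control (0.16, adjusted p = 0.014) was not called without IAA control replicate 1 (adjusted p = 0.13) or wild-type replicate 2 (adjusted p = 0.17), nor with median-of-ratios factors (adjusted p = 0.064). Ccnd1, which encodes cyclin D1, was 376 and 416 in the untreated control, 328 and 343 in the IAA control, 588 and 687 in the wild-type line and 296 and 352 in the mutant line. The wild-type libraries were the highest of all 8. The wild-type line was above the IAA control by 0.92 (SE 0.09, adjusted p = 8.5e-11). The mutant line differed from the wild-type line by -0.98 (SE 0.09, adjusted p = 1.4e-11). Against the IAA control the mutant line was not called for Ccnd1 (-0.06, adjusted p = 0.67). The fall with IAA (-0.24, SE 0.09, adjusted p = 0.031) was not called without untreated control replicate 2 (adjusted p = 0.32), IAA control replicate 1 (adjusted p = 0.17) or replicate 2 (adjusted p = 0.061).

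Nkd2, the paralog of Nkd1, was too low on average to be tested with the others. It was 15.05 and 18.1 in the untreated control, listed at 0 and at 1.10 in the IAA control from 0 and 1 reads, 8.74 and 6.42 in the wild-type line and 4.18 and 1.98 in the mutant line. Both untreated libraries were above all 6 with IAA. In the fit without the filter on the mean it was lower in the IAA control (adjusted p = 4e-06) and higher in the wild-type line than in the IAA control (2.55, SE 0.58, adjusted p = 0.00086).

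Genes of the pathway outside the 46 were counted in the same fit, from lists also chosen with earlier results of these data known. Of a list of 76 further pathway genes, 54 were tested, and 29 (53.7%, against 37.7% of all genes) changed with IAA, 13 higher and 16 lower, with a median of -0.02. Between the lines 20 of the 54 (37.0%) differed, 13 higher and 7 lower in the mutant line, a share near the 34.7% of all genes. The R-spondin gene Rspo2 fell with IAA (-1.55, adjusted p = 0.00022) and was lower in the mutant than in the wild-type line (-1.80, adjusted p = 3.7e-05), from means under 35 in each group. The Wnt receptor gene Ror1 was also lower in the mutant line (-1.42, adjusted p = 3.7e-11), and Dkk3, of the Dickkopf family, was higher (0.55, adjusted p = 8.8e-07). Lgr6, an R-spondin receptor gene, rose with IAA (2.15, adjusted p = 5e-12). These 4 genes were singled out after their values were seen. Of a list of 21 further targets, 12 were tested, and 6 rose and 2 fell with IAA, where 19.4% and 18.4% of all genes did. Between the lines 6 of those 12 were lower and none higher in the mutant line, where 18.4% of all genes were lower and 16.3% higher. Cdx1, one of them and a homeobox gene of posterior development, was 236 and 253 in the untreated control, 709 and 752 in the IAA control, 584 and 607 in the wild-type line and 237 and 277 in the mutant line. It rose with IAA by 1.58 (SE 0.08, adjusted p = 6.2e-19), and the lines differed by -1.21 (SE 0.08, adjusted p = 6e-15).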

How the data were processed

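Newly made RNA was profiled in 8 TT-seq libraries, 2 for each of 4 groups, with groups and replicate numbers taken from the sample titles. A single table of 16940 genes was deposited, with normalized read counts (a depth-scaled signal) that the authors made. The submitters' processing notes name Trim Galore, STAR, featureCounts, DESeq2 and mm10, without versions. From the values, every library's values (100%) were multiples of one step within a tolerance of 0.01, and a read was worth 0.836 to 1.19 normalized reads. Counted feature, annotation and use of strand are not given in the sources used here. Positions and biotypes came from GENCODE M21 on GRCm38, by gene ID, and promoters from RefSeq on GRCm38.p6.

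limma 3.58.1 in R 4.3.3 was run on log2(value + 1), with 1 coefficient per group and a mean-variance trend (4 residual degrees of freedom), over the 15818 genes with a mean of at least 10, with Benjamini-Hochberg adjustment and a threshold of 0.05 in each of 6 comparisons. Fold changes of low genes are understated on this scale. The fit was tested on simulated data. The labels do not say that replicates came from separate cultures, so p-values measure the spread between these libraries, which may be technical, and counting error is the least error a value can have.

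The members and lists were chosen with earlier results of these data known. Values were given in full for members with a mean of at least 50, a call and an absolute log2 difference of at least 0.5 in any comparison (15 with Wls, Ctnnb1, Axin2, Sp5 and Tcf7l1 always included), plus 4 named after their values were seen. Wnt3a and Nkd2, which were not tested in the main fit, and Cdx1 of the target list were also given in full after their values were seen. The alternatives were no filter, a minimum mean of 50, pseudocounts of 0.5 and 10, 2 other scalings, no trend, only the 2 groups compared, the replicate number as a block, edgeR (version 4.0.16) on the recovered reads, and leaving out each library. The Ctcf gene was not analysed here.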

Additional observations from a re-analysis of the deposited data

Results flagged for a closer look

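Wls and Notum stood apart because the wild-type and mutant lines each differed from the IAA control past the threshold, in opposite directions, and also differed from each other. For Wls the lines differed by -2.34 on the log2 scale (mutant minus wild type, limma adjusted p = 9.1e-19). For Notum they differed by -0.69 (adjusted p = 1.5e-05). In both genes every mutant library was below every wild-type library. The rise in the wild-type line over the IAA control was small in both, and it was not called with some single libraries left out: for Wls without replicate 2 of the IAA control (adjusted p = 0.11) or of the wild-type line (adjusted p = 0.18), and for Notum without IAA control replicate 1 (adjusted p = 0.37) or either wild-type replicate (adjusted p = 0.10 and 0.15). These rises were also not called without the mean-variance trend (adjusted p = 0.057 for Wls and 0.072 for Notum), nor that of Notum with median-of-ratios factors (adjusted p = 0.086) or equal totals (adjusted p = 0.061). The fall of Notum in the mutant line was not called without IAA control replicate 2 (adjusted p = 0.18) or mutant replicate 1 (adjusted p = 0.085). No wild-type or mutant line without IAA was analysed here, so the CTCF form and the line cannot be told apart.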

How the results depend on the processing

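Of 114 named values, 80 were called, and none of those reversed under any alternative run. Fitting without a mean-variance trend moved the counts of called members most, to 13 with IAA (12 higher, 1 lower), 5 in the wild-type line against the IAA control (5 higher, 0 lower), 15 in the mutant line against the IAA control (4, 11) and 13 between the lines (3, 10). It also ended the call of 19 of the 80 named values: with IAA those of Fzd10, Lef1, Sp5 and Ccnd1, against the IAA control those of Wls, Fzd8, Tcf7l1, Notum and Sfrp1 in the wild-type line, Axin2 in the mutant line and Ctnnb1 in both, between the lines those of Fzd10 and Tcf7l1, and against the untreated control those of Fzd4 in the wild-type line, Sfrp1 and Ccnd1 in the mutant line and Ctnnb1 in both. It lowered the counts over all genes from 5967 to 3946 with IAA, from 4991 to 2379 and from 5433 to 3228 in the wild-type and mutant lines against the IAA control, from 5489 to 3263 between the lines and from 5975 to 3869 for the mutant line against the untreated control. The cause was not tested. Leaving out a library gave 15 to 18 called members with IAA, 10 to 13 and 19 to 21 in the wild-type and mutant lines against the IAA control, 17 to 21 between the lines, and 20 to 23 and 21 to 23 against the untreated control, with fewer residual degrees of freedom. Without wild-type replicate 2, 3274 genes in all were called in the wild-type line against the IAA control. Across genes, same-numbered libraries did not deviate together (r from -0.022 to 0.028). The labels used here do not say whether same-numbered libraries were prepared together, and these correlations cannot tell. With the replicate number as a block, 22, 17, 23, 21, 26 and 25 members were called in the same order of comparisons. edgeR on the recovered reads called 22, 17 and 25 members with IAA and in the wild-type line against each control. It was not run with the mutant line, since the step of one of its libraries, 0.989, lay too close to 1 for the check applied before that run. The values of that library were still multiples of its step. The other settings kept the total counts of called members within 1.5 times of the main ones, but the counts of lower members moved more with the scaling. Equal totals gave 6 lower in place of 3 with IAA and 8 in place of 5 in the wild-type line against the IAA control. Median-of-ratios factors gave 9 there, and both gave 6 in place of 3 in the wild-type line against the untreated control. Both gave 11 in place of 9 in the mutant line against the untreated control. One read is worth about 1 normalized read, so members near the minimum mean, such as Wnt7b and Dkk1 without IAA, rest on few reads.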
